A study of Mus musculus with 12 samples.

Results

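Clusters of distal H3K27ac peaks in control mouse embryonic stem (ES) cells are described here: 175 clusters that held 596 of the 21418 H3K27ac peaks of the control list. A peak was called distal when its deposited distance to the nearest transcription start site (TSS) was above 2000 bp, and 7149 peaks were. Distal peaks within 12.5 kb of each other on a chromosome were stitched into 5873 regions, of which 4843 held 1 peak, 855 held 2, and 175 held at least 3. The clusters were chosen by the positions of the control peaks and ranked by peak width times Peak Score, summed over a cluster's peaks. Their positions, scores and ranks are therefore a description and carry no test.

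H3K27ac, acetylation of histone H3 at lysine 27, marks active promoters and active enhancers. Enhancers that lie close together often act on the same gene, and dense clusters with much of this mark have been named super-enhancers. In ES cells such clusters are best known beside the genes of pluripotency factors. RXR, the retinoid X receptor, binds DNA with a partner receptor such as RAR, the retinoic acid receptor, or LXR, the liver X receptor. Bound RXR at an enhancer can recruit coactivators that acetylate histones when a ligand is present.

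The cells were E14 wild type mouse ES cells, grown without feeder cells in medium with LIF. H3K27ac and RXR were each mapped by chromatin immunoprecipitation and sequencing in control cells, which received the dimethylsulfoxide vehicle, and after 24 h with 1 µM of a ligand, with 1 library per group. The ligands were GW3965, which activates LXR, LG268, which activates RXR, and RA, all-trans retinoic acid, which activates RAR. For neural differentiation through embryoid bodies, with RA added at 5 µM, RXR lists came from day 8 and day 16, with 2 libraries per day. H3K27ac was analysed only in the 4 ES groups.

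The H3K27ac lists held 12472 (LG268) to 21418 (control) peaks, and the ES RXR lists 940 (GW3965) to 2089 (LG268). Read totals were not analysed here, so depth per library is unknown, and depth and list length cannot be told apart. Of 10 ES cell marker genes, 4 (Pou5f1, Sox2, Klf2 and Tbx3) had a control H3K27ac peak within 2 kb of their start. Of 4 neural progenitor markers, 2 (Pax6 and Nes) had one, 1 of 4 endoderm markers (Foxa2), 1 of 4 mesoderm markers (Kdr) and 0 of 4 trophoblast markers. With 1 library per group no comparison between treatments has a replicate check, and intervals given are exact (Clopper-Pearson) 95% intervals that cover counting error only. Peaks of 1 cluster are neighbours and are not independent.

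Several clusters lay at short RNA genes, and the sequences of the microRNAs beside 2 of them are shown because they name the genes. All are mature sequences from RefSeq (GRCm38.p6), with the seed, bases 2 to 8, in capitals. The rank 4 cluster, on chromosome 13, began 7080 bp from the let-7a sequence, 7430 bp from let-7f and 9241 bp from let-7d. The rank 43 cluster, on chromosome 17, spanned miR-99b, let-7e and miR-125a. The 4 let-7 sequences share 1 seed, and miR-99b and miR-125a have seeds of their own.
mmu-let-7a-5p: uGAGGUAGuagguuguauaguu
mmu-let-7f-5p: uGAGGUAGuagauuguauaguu
mmu-let-7d-5p: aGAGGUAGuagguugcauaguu
mmu-let-7e-5p: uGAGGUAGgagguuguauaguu
mmu-miR-99b-5p: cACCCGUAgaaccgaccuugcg
mmu-miR-125a-5p: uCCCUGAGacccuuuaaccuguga
The let-7 family is known to rise as ES cells differentiate and to target Lin28a. The deposited nearest gene was a microRNA gene for 31 of the 596 clustered peaks (5.20%) and for 172 of the 6553 distal peaks outside clusters (2.62%). The 31 peaks fell in 9 clusters, where neighbouring peaks share a nearest gene, so the 2 shares do not count separate places alike.

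One further sequence lies at the RXR site with the highest control score in a cluster, that of Srebf1, the gene of the lipid synthesis regulator SREBP-1. The 250 bases before its downstream start (RefSeq, GRCm38.p6, chr11:60210472-60210721, minus strand) are printed below, with the single DR4 match in capitals. DR4 is the direct repeat that LXR with RXR is known to bind.
Srebf1 downstream promoter: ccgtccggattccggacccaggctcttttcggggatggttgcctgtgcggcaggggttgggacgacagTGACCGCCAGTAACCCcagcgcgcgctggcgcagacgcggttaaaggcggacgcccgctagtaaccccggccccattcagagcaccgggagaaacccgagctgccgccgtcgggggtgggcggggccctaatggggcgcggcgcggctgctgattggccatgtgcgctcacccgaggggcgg
The motif searched was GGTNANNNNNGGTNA on both strands, and the match lay on the other strand. The capitals hold the match and 1 adjoining base that completes the half-site, and lie 167 to 182 bases upstream of the start. This motif was found in 0.621% of 32851 promoter windows of that length. Of the 25 promoter windows that overlapped a clustered peak, Srebf1 was the only one with it. None of the 25 held GGTNANNGGTNA (DR1, in 0.938% of all windows) or GGTNANNNNNNGGTNA (DR5, in 0.521%). A match is a description of letters, and its absence says nothing about a factor.

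Most clusters were small. There were 131 clusters of 3 peaks, 24 of 4, 14 of 5, 5 of 6 and 1 of 7. The cluster of 7 lay in intron 1 of Cuedc1 (chr11:88138760-88162136), and the clusters of 6 were named for Kdm6b, Mir3089, Mir23a, Wasf2 and Msi2. Spans ran from 1011 to 29748 bp with a median of 8940 bp, and 48 clusters were under 3 kb while 73 reached 10 kb or more. Of the 421 gaps between neighbouring peaks, 236 (56.1%) were under 1 kb and 147 (34.9%) over 5 kb. Peaks covered 13.5% of the summed span. When peaks within 1 kb were counted as 1, 42 clusters still had at least 3 separate groups of peaks, 87 had 2 and 46 had 1. At the edges of the rule, the widest gap bridged was 12478 bp (Cubn, rank 169) and the narrowest gap beside a cluster that was not bridged was 12613 bp (Mdm4). The smallest TSS distance in a cluster was 2005 bp, and the largest distance left out was 2000 bp.

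The ranking was steep at the top. The summed width times score went from 146128 at rank 1 to 8722 at the median and 2339 at rank 175. The first 3 clusters held 15.7% of the sum over all clusters, and the first 20 held 38.4%. Both the nearest gene names and the ranking use the deposited annotation, and the 175 clusters carried 170 names, of which 5 (Cuedc1, Macf1, Mir3089, Tgif1 and 4930578M01Rik) were used for 2 clusters each.

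The first 3 clusters lay over small nuclear RNA genes, although the deposited annotation named them for protein-coding neighbours. Each of the 3 peaks of the rank 1 cluster (named Rdm1, chr11:101641064-101658316) overlapped 1 RefSeq snRNA gene: Gm24950, Gm23971 and Rnu2-10, the last a gene of U2, an RNA of the spliceosome. Their control scores were 93.57, 32.57 and 108.65, and the highest of them stood at place 3 of all 21418 control peaks. The rank 2 cluster lay in intron 2 of Tex14 (chr11:87442652-87471446), where 4 of 5 peaks overlapped Rnu3b1, Rnu3b3, Rnu3b4 and Rnu3b2, genes of U3, an RNA of ribosomal RNA processing. Those 4 peaks scored 57.78, 55.69, 54.18 and 68.29, and the fifth, in an LTR element, scored 3.60. That low peak alone joins the U3 peaks on its 2 sides, with gaps of 4544 and 8272 bp beside it. Without it the gap exceeds the stitching distance, and the 4 U3 peaks form 2 regions of 2 peaks, which are not clusters. No ligand list called the peak of 3.60. Each of the 4 peaks of the rank 3 cluster (named Mreg, chr1:72225861-72255065) overlapped an snRNA gene of 191 bp, with scores of 41.80, 23.54, 57.49 and 39.66. The rank 9 cluster (Kif2c) had an snRNA gene of 116 bp at each of its 3 peaks.

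tRNA genes, which RNA polymerase III transcribes, lay within 500 bp of peaks in 5 more clusters, among them C230035I16Rik (rank 7), Haao (10), Aurkb (73) and Hes7 (83). In all, 27 of the 596 clustered peaks (4.53%, interval 3.01 to 6.52) lay within 500 bp of a RefSeq snRNA, snoRNA, tRNA or rRNA gene. Outside clusters 60 of 6553 distal peaks did (0.916%, 0.699 to 1.18), and of the promoter-near peaks 92 of 14268 (0.645%). The 27 peaks fell in 9 clusters, 6 of them among the first 20, and the highest rank without such a gene was 4. Several of these genes have near-identical copies, so the score at a single copy is uncertain. The plot of ranked clusters marks these 9.

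**Figure D1:**
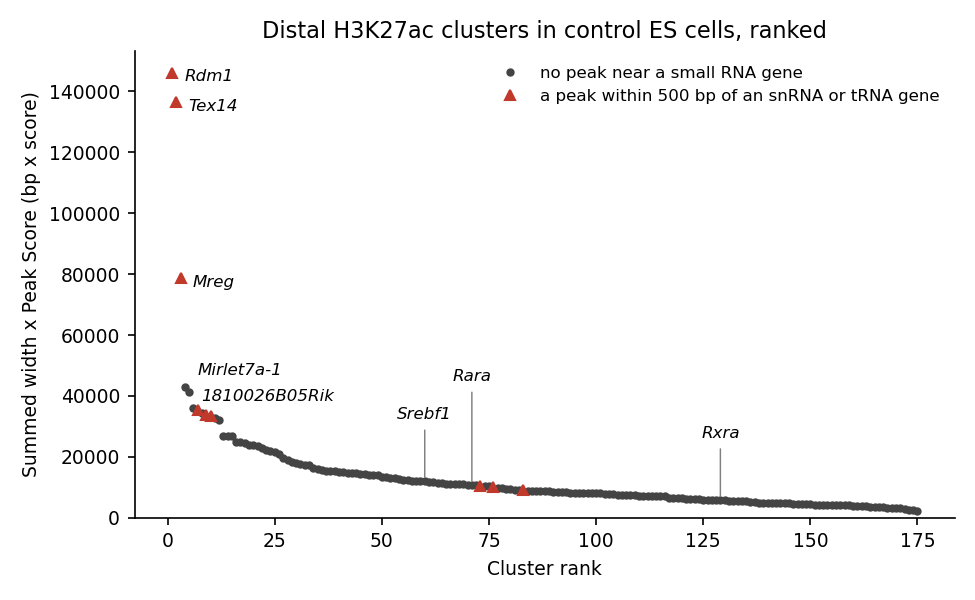
Summed width times Peak Score (vertical axis, bp times score) of the 175 clusters by rank (horizontal axis); each point is 1 cluster, and triangles are the 9 clusters with a peak within 500 bp of an snRNA or tRNA gene. The first 3 points, from 146128 down, stand apart from the rest and are all triangles, and Srebf1, Rara and Rxra lie at ranks 60, 71 and 129.

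The highest clusters without such genes were Mirlet7a-1 (rank 4, chr13:48545340-48552945), 1810026B05Rik (5), Actg1 (6), which encodes gamma actin, and Mrpl45 (8). The Mirlet7a-1 cluster rested on 1 peak in a CpG island, with a score of 74.01 (place 36 of the control list), beside peaks of 10.31 and 6.74. The others of the first 20 were Acot11, 1700019O17Rik, 2010308F09Rik, Nfia, Kdm6b, Slc45a1, Arid1a, Nhsl1, Zfp960 and Foxj2. With 3 other rankings, 14 (summed score), 18 (summed width times mean score) and 14 (highest peak score) of these 20 stayed among the first 20, and Rdm1, Tex14, Mreg and Mirlet7a-1 held the first 4 places in each. Arid1a encodes a subunit of the SWI/SNF chromatin remodeller, Nfia a transcription factor, and Kdm6b a demethylase that acts on methylated H3K27.

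CpG islands were common in the high clusters despite the distance rule. Of the first 20 clusters, 16 held a peak annotated as CpG island, and of the last 20, 1 did. A peak within 2 kb of a RefSeq start was in 8 of the first 20. Over all peaks, 13.9% of clustered peaks were in CpG islands, against 9.60% of distal peaks outside clusters. Of all control peaks, 18.5% were in CpG islands and 58.7% within 2 kb of a RefSeq start. A RefSeq start lay within 2 kb of 88 clustered peaks (14.8%), against 11.6% outside, since RefSeq holds starts that the deposited annotation did not use. Regions of 2 distal peaks were like the clusters in this, with 12.2% in CpG islands and 16.2% near a RefSeq start. In 12 clusters every peak lay within 2 kb of a RefSeq start. LINE elements, which are retrotransposons, held 5.70% of clustered peaks (3.98 to 7.88) and 23.9% of distal peaks outside (22.8 to 24.9). LTR elements held 7.72% and 6.91%. In 111 clusters every peak was intergenic, and in 39 every peak was in an intron. Chromosome 11 held 29 of the 175 clusters (16.6%) and 8.62% of distal peaks outside clusters.

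Few of the listed pluripotency genes were nearest to a cluster, as was true of genes in general. Of 4472 genes nearest to a distal control peak, 192 (4.29%) were nearest to a clustered peak. Of 12 core pluripotency factors 8 were nearest to a distal peak, and 1 of these, the zinc finger factor Sall1, had a cluster. Of 16 naive pluripotency factors 7 were nearest to a distal peak, and 0 had a cluster. With so few genes these counts do not stand apart from 4.29%. Nanog had 2 distal peaks, the higher with a score of 10.04, 4719 bp from its start, and the largest region beside it held 1 peak. Sox2 had 2 distal peaks in 1 region, Klf4 had 4 and Esrrb 2, each in regions of 1 peak. The rule asks for at least 3 called peaks, so 1 broad peak does not make a cluster.

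The other lists were as small, and their counts are also to be read against 4.29% of the genes nearest to a distal peak. Socs3, the feedback inhibitor of LIF signalling, was the 1 of 5 such LIF pathway genes with a cluster. Fgfr1, an FGF receptor, and Spred2, an inhibitor of ERK signalling, were 2 of 10 FGF and ERK pathway genes. Rara was 1 of 9 RAR targets, Srebf1 1 of 5 LXR targets and Sox1 1 of 8 neural progenitor genes. The count was 0 of 7 for the Nodal, BMP and TGF-beta list, 0 of 5 for Wnt, 0 of 9 for chromatin regulators and 0 of 7 for primed and epiblast genes. It was 0 of 4 for endoderm and mesoderm genes and 0 of 1 for trophoblast genes. The cluster of Rxra, the gene of an RXR itself, had rank 129.

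The next question was which clustered peaks were called again after each ligand, where called means overlapped by at least 1 bp by a peak of that list. With GW3965, 351 of 596 clustered peaks were called (58.9%, 54.8 to 62.9), where the share of all control peaks was 68.8% and of distal peaks outside clusters 45.4%. With RA, 273 were called (45.8%, 41.8 to 49.9), where the share of all control peaks was 60.2% and outside clusters 31.0%. With LG268, 215 were called (36.1%, 32.2 to 40.1), where the share of all control peaks was 51.8% and outside clusters 23.5%. Clustered peaks thus lay above other distal peaks and below promoter-near peaks in each list. The order of the 3 lists followed their lengths of 17759, 14958 and 12472 peaks, and list length and treatment cannot be told apart. With the ligand lists limited to the 12472 highest peaks, the shares were 40.3% with GW3965, 35.6% with RA and 36.1% with LG268, so the order of RA and LG268 turned. Between the single peaks and the clusters stood regions of 2 peaks, with 54.3%, 39.1% and 29.8% called.

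**Figure D2:**
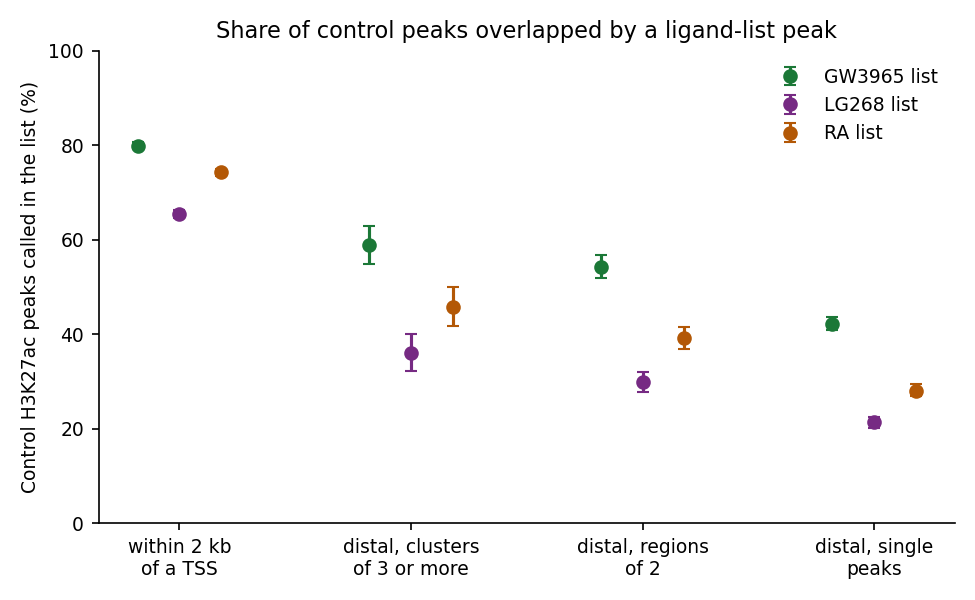
Share of control H3K27ac peaks called in each ligand list (vertical axis, percent) for promoter-near peaks, clusters of 3 or more, regions of 2 and single distal peaks; points are shares and bars exact 95% intervals, with 1 library per list. In each list the share falls from promoter-near peaks through clusters and regions of 2 to single peaks.

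Control score and the call moved together. The median control score was 6.05 for clustered peaks, 5.33 for distal peaks outside and 11.2 for promoter-near peaks. Distal peaks were therefore set into 4 classes by control score, with bounds at 4.03, 5.36 and 7.44, the 25th, 50th and 75th percentiles. Tied scores left 1614 to 1990 peaks per class. In the lowest class, 34.4% of clustered peaks were called with GW3965 and 23.7% of those outside. In the highest class the shares were 85.0% and 80.0%. For LG268 they were 11.2% and 8.42% in the lowest class and 66.7% and 58.2% in the highest. For RA they were 16.8% and 13.4%, then 74.6% and 66.8%. In each of the 12 comparisons (4 classes, 3 lists) the clustered share was the higher, by less than over all scores, and in 9 of them the intervals overlapped.

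**Figure D3:**
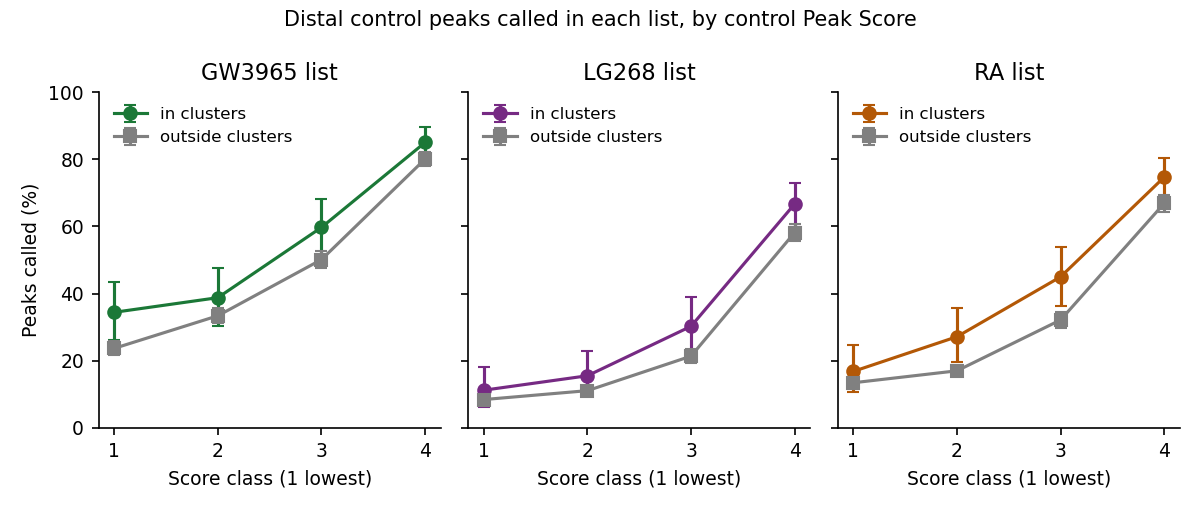
Share of distal control peaks called in each ligand list (vertical axis, percent) by class of control Peak Score (horizontal axis, 1 lowest to 4 highest), for peaks in clusters (coloured circles) and outside clusters (grey squares); bars are exact 95% intervals. Shares rise with score in both sets, from 34.4% to 85.0% for clustered peaks with GW3965, and the clustered points lie above the grey ones.

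The kinds of clustered peak also differed. Peaks near a small RNA gene were called in 85.2%, 85.2% and 88.9% of 27 cases with GW3965, LG268 and RA, and their median control score was 23.5. Outside clusters such peaks were called in 78.3%, 66.7% and 78.3% of 60 cases. The other 569 clustered peaks were called in 57.6%, 33.7% and 43.8%. Clustered CpG island peaks were called in 74.7%, 54.2% and 73.5% of 83 cases, against 72.5%, 53.9% and 65.7% of CpG island peaks outside clusters, so that with GW3965 and LG268 the shares nearly met. Clustered LINE peaks were called in 47.1%, 17.6% and 41.2% of 34 cases, against 44.9%, 11.4% and 19.8% outside. The clustered intervals with GW3965 (29.8 to 64.9) and LG268 (6.76 to 34.5) held the outside share, and that with RA (24.6 to 59.3) did not. The median control score of clustered LINE peaks was the lower, 4.53 against 5.06, so with RA share and score did not move together. In 8 clusters every peak was in a LINE element, so the 34 peaks are not separate places. Within a cluster the highest peak was called in 79.4%, 58.9% and 65.1% of the 175 clusters, and the other peaks in 50.4%, 26.6% and 37.8%. Their median control scores were 10.1 and 5.06. Distal peaks outside clusters in the highest score class, with a median of 10.2, were called in 80.0%, 58.2% and 66.8%. Clusters with ranks 1 to 58 had 70.5%, 54.5% and 62.7% of their peaks called, and those with ranks 117 to 175 had 44.2%, 16.6% and 26.5%. The median control scores of these peaks were 8.355 and 4.63. Both splits rest on control score, so they do not separate the kind of peak from its score.

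Most clusters were called in part. All peaks of a cluster were called in 32 clusters with GW3965, 16 with RA and 8 with LG268, and no peak in 16, 32 and 47. All 3 lists called 162 clustered peaks (27.2%, against 14.4% of distal peaks outside), and none of them called 194 (32.6%, against 43.7%). The pattern of GW3965 alone held 84 peaks (14.1%, against 17.8% outside), RA alone 36 (6.04%, against 6.18%) and LG268 alone 7 (1.17%, against 3.07%). The share called was lower with LG268 than with GW3965 in 105 clusters, equal in 65 and higher in 5. With RA it was lower than with GW3965 in 79, equal in 72 and higher in 24.

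The clusters called whole in all 3 lists were Rdm1, Mreg, Mirlet7a-1 and Kif2c, of which 3 are the snRNA clusters described above. The Rdm1 peaks scored 82.22, 34.16 and 100.43 with GW3965, 68.33, 13.91 and 56.96 with LG268, and 67.88, 11.03 and 73.45 with RA. The scale of scores between libraries is not stated, but within each list the rank 1 to 3 clusters (Rdm1, Tex14 and Mreg) also had the 3 highest sums over the 175 spans. For Tex14 this holds over the control span only, as the stitching rule gave no Tex14 cluster on any ligand list. Of the first 20 control clusters, 16 were among the highest 20 sums with GW3965, 15 with RA and 14 with LG268.

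No peak was called in any ligand list in 8 clusters, all of rank 129 or lower: Rxra, Adcy6, Frmd4b, Macf1, Fads2, Rnmtl1, Pif1 and Spred2. The 3 Rxra peaks, in introns 2 and 4 of the gene, scored 3.45, 7.05 and 9.18 in the control list, and the 3 Spred2 peaks 4.31, 2.57 and 3.75. Of these 6 scores, 4 were below 5.36, the median of distal peaks. Adcy6 (rank 137) held a peak with 11.1, above the 7.44 bound of the highest score class, and 2 of its 3 peaks were in CpG islands. The highest peaks of the others scored 5.36 (Frmd4b), 4.9 (Macf1), 5.35 (Fads2), 4.07 (Rnmtl1) and 5.94 (Pif1). Among the first 100 clusters, Wasf2, which encodes an actin regulator, had 0 of 6 peaks called with GW3965, 0 with RA and 1 with LG268. Its control scores ran from 5.10 to 6.67. RA called no peak of Rara or Ndufa10, and LG268 none of 6430573F11Rik, Sall1, Sox1, Ndufa10, Tmem17 or Gm5086.

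The Sall1 cluster (chr8:89002138-89025968, 5 intergenic peaks 18377 to 41804 bp from the gene's start) scored 8.73, 4.55, 6.01, 8.90 and 11.96 in the control list. GW3965 called only the last, with 5.99, and RA the last with 6.13 and the third with 5.22. Sall1 had 12 distal control peaks in all, and the highest, with 14.06, lay outside this cluster. The stitching rule applied to the RA list gave a Sall1 cluster elsewhere, at chr8:89041025-89053011 (place 10). The control list had 2 distal peaks there, so the cluster described here does not stand for the whole gene. At Socs3 (chr11:117962359-117976460) the control scores were 3.65, 9.14 and 11.73, and GW3965 called all 3 peaks while LG268 and RA called the latter 2. At Sox1, an early neural gene, the control scores were 6.88, 8.17 and 5.71, and GW3965 and RA each called the first 2. The 3 Fgfr1 peaks, in intron 2, scored 12.17, 4.51 and 3.62, and GW3965 called all of them, in part through 1 wider peak over the first 2.

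Peaks inside the spans that overlapped no control peak, at any distance to a TSS, numbered 13 with GW3965, 3 with LG268 and 13 with RA. The lists held 17759, 12472 and 14958 peaks, and their share without a control peak is not given here. The same stitching rule gave 91 clusters on the GW3965 list, 28 on LG268 and 48 on RA. Of these, 44 (48.4%), 19 (67.9%) and 28 (58.3%) overlapped a control cluster, which is 25.1%, 10.9% and 16% of the 175. Only 6 clusters of the GW3965 list, and 0 of the others, lay where the control list had no distal peak at all. Gm7244 and Gltscr1l, at places 3 and 4 of the GW3965 clusters, each had 2 distal control peaks in their span, 1 short of the rule. Gm7244 also made a cluster on the LG268 and RA lists, at place 12 of each, and Gltscr1l did not.

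RXR was then placed on the clusters. A control RXR peak lay inside 19 of 175 clusters (10.9%), a GW3965 RXR peak inside 19, an RA peak inside 24 (13.7%) and an LG268 peak inside 37 (21.1%). Regions of 2 distal peaks held them in 3.98%, 3.63%, 6.90% and 9.24% of cases, and single peaks in 2.17%, 1.73%, 2.79% and 3.39%. Spans of clusters are longer. Per Mb of span, clusters held 13.9, 12.1, 19.4 and 27.9 RXR peaks and regions of 2 peaks 15.8, 13.7, 26.5 and 35.0. Single peaks held 62.1, 50.04, 78.8 and 94.9. The span of a single peak is the peak itself, while that of a cluster is mostly gap, so these densities are not alike. Per peak the difference was small. Of the 596 clustered peaks 14 overlapped a control RXR peak (2.35%, 1.29 to 3.91), where the share of distal peaks outside clusters was 2.01%. The clustered share was 1.85% with GW3965 against 1.60% outside, 5.54% (3.84 to 7.69) with LG268 against 3.56%, and 3.86% (2.46 to 5.73) with RA against 2.75%. Each of these 4 clustered intervals overlapped the interval outside.

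Merging RXR peaks of the 8 lists gave 80 sites in 55 clusters, of which 66 sites in 51 clusters were in an ES list. Of 22 sites with a control peak, 17 were found with LG268, 17 with RA and 7 with GW3965. LG268 had 29 sites without a control peak, RA 15 and GW3965 13. The RXR lists differ in length, and these counts cannot be told apart from it. The share of a list's RXR peaks inside cluster spans was 2.11% (control), 2.13% (GW3965), 2.20% (LG268) and 1.62% (RA). The share of all control RXR peaks found with each ligand is not given here. The 10 sites with GW3965 alone stood apart: 6 were in LTR elements and 1 was on a control H3K27ac peak. Of the other 56 ES sites, 2 were in LTR elements and 40 were on an H3K27ac peak. The GW3965 list as a whole had 16.4% of its RXR peaks in LTR elements, against 2.48% in the control list. The clusters of Psme4 and Ncoa1, a coactivator gene, were of this kind, each with a GW3965 RXR peak in an ERVK element, scoring 8.27 and 3.90. The Sall1 cluster held an RXR peak with GW3965 only, with a score of 9.57.

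**Figure D4:**
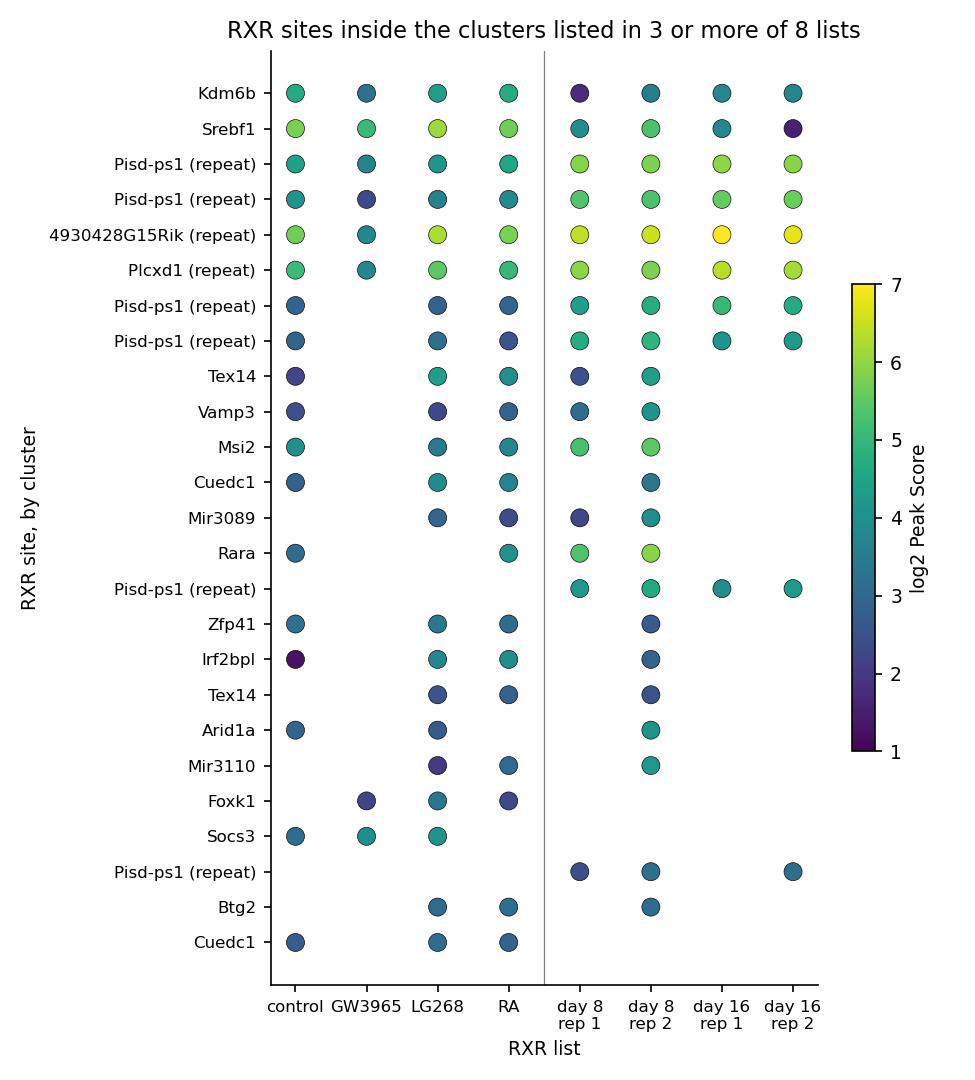
RXR sites inside clusters that were listed in 3 or more of 8 RXR lists (rows, named by cluster) against the list (columns); a filled point is a called peak, coloured by log2 Peak Score of that list. Kdm6b and Srebf1 are the 2 rows filled in all 8 lists outside repeats. Rara, Msi2, Vamp3, Mir3089 and the upper Tex14 row are filled in both day 8 columns and empty at day 16.

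Only 6 sites were called in all 8 lists. Of these 4 lay in repeats, satellite or (CCCTAA)n, in the clusters of Pisd-ps1 (2 sites), 4930428G15Rik and Plcxd1, where the score of a single copy is uncertain. The other 2 were at Kdm6b and Srebf1. The Kdm6b site (chr11:69417894-69418351), 4493 bp upstream of the start, scored 25.6 in the control list, 9.57 with GW3965, 20.6 with LG268 and 25.5 with RA. At day 8 it scored 3.41 and 11.7, and at day 16 it scored 14.2 and 13.3. The 6 control H3K27ac peaks of that cluster scored 12.33, 6.34, 10.19, 10.01, 9.11 and 7.27, and each ligand list called 5 of them. The peak under much of the RXR site, with 9.11, was called with GW3965 (5.77) and RA (8.32) and not with LG268, which called its neighbour with 16.68.

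At Srebf1 (rank 60, chr11:60209678-60222876) peaks of the cluster lie at 2 RefSeq starts of the gene, 12110 bp apart. The TSS used by the deposited annotation is neither of these and lies between them. The downstream start, whose sequence is printed above, makes the SREBP-1c form, a textbook target of LXR. RXR at this start scored 54.6 in the control list (place 21 of 1089), 33.5 with GW3965 (place 17 of 940), 70.1 with LG268 (place 24 of 2089) and 51.1 with RA (place 36 of 1970). At day 8 it scored 15.0 and 39.3, and at day 16 it scored 13.8 and 2.90, so the day 16 replicates lay far apart. The RXR peak was thus already called in cells given vehicle alone.

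The 2 H3K27ac peaks on either side of that start scored 11.61 and 9.59 in the control list and stood at places 7550 and 9282 of 21418. With GW3965 they scored 22.23 and 18.28, at places 2108 and 3069 of 17759. With LG268 only the first was called, with 6.02, and with RA they scored 5.01 and 5.11. The peak near the upstream start had a lower value in the GW3965 list, 5.71 against 7.82 in the control list, and a promoter-near peak 250 bp from the deposited TSS scored 27.38 in the control list and 18.46 with GW3965. These are values of single libraries on a scale not stated to be shared, and places in lists of unequal length show no change by themselves. A second RXR site, by the upstream start, was called with RA (5.63), with LG268 (6.72) and in both day 8 replicates (12.3 and 31.0). The LG268 peak and that of day 8 replicate 1 lay just outside the span.

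**Figure D5:**
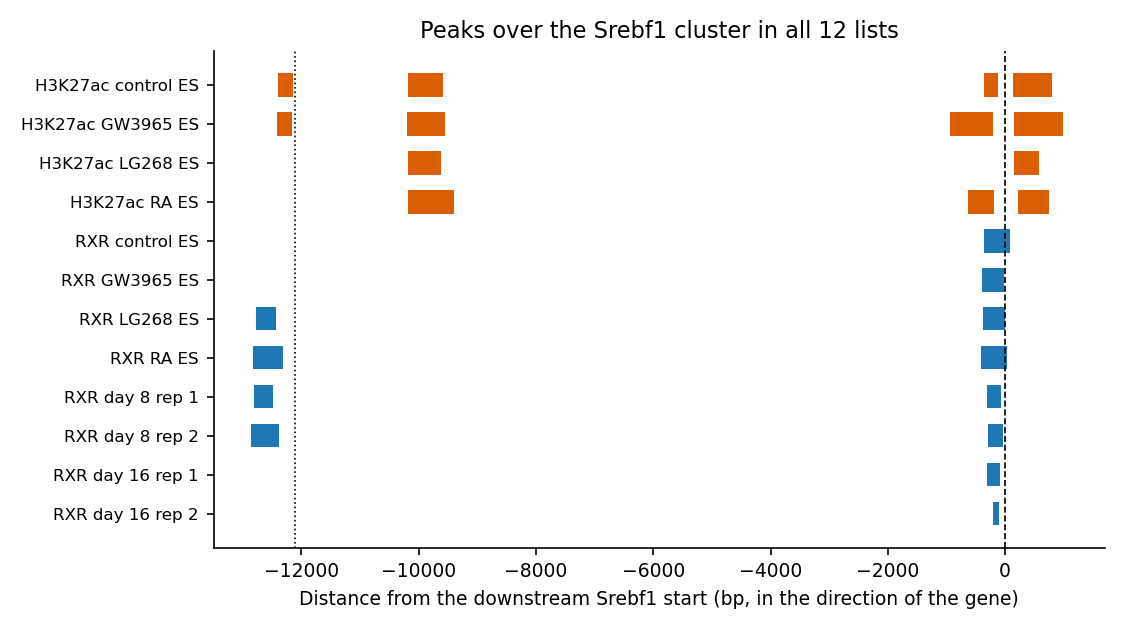
Peaks over the Srebf1 cluster in all 12 lists (rows), drawn to scale as distance from the downstream start in bp (horizontal axis); orange bars are H3K27ac peaks and blue bars RXR peaks, the dashed line is the downstream start and the dotted line the upstream start 12110 bp away. A blue bar stands beside the dashed line in each of the 8 RXR rows, and the second blue bar near the dotted line appears with LG268, RA and day 8.

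At Rara (rank 71, chr11:98941627-98964490), itself a textbook RAR target, the main RXR site lay 410 bp upstream of an internal start. It scored 8.47 in the control list, 16.4 with RA, and 39.8 and 60.3 at day 8, and it was not called with GW3965, with LG268 or at day 16. The 4 distal H3K27ac peaks scored 13.27, 3, 3.20 and 4.42 in the control list, and RA called none of them. GW3965 called the first (7.35) and the last (3.83), and LG268 the first (6.05). None of these 4 peaks overlapped the RXR site. Peaks as near to a TSS as this site were left out by the distance rule, so this was largely set in advance. Rara had 5 control H3K27ac peaks in all, and the promoter-near peak was not compared with the site. Whether RXR and H3K27ac meet there is therefore not shown. At Socs3 the site scored 8.74 in the control list, 15.3 with GW3965 and 17.0 with LG268, with no call with RA. At Msi2, an RNA-binding protein gene, it scored 15.9 in the control list, 10.9 with LG268, 13.8 with RA, and 38.0 and 45.2 at day 8. At the U3 gene Rnu3b4 in the Tex14 cluster it scored 4.77 in the control list, 20.3 with LG268 and 15.75 with RA, then 5.57 and 20.6 at day 8.

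The 10 highest clusters with a control RXR peak were Tex14, Mrpl45, Kdm6b, Arid1a, Cuedc1, Vamp3, Ncrna00085, Chd9, Srebf1 and Rara. With LG268 they included Rdm1, Actg1, 1700019O17Rik and Pcmtd1. With RA they included Fam161a, Mir3089 and Foxk1, and with GW3965 B330016D10Rik, Klf13 and Foxk1.

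Clustered peaks with an RXR peak of the same treatment had a higher share called in that treatment's H3K27ac list. The same share for distal peaks outside clusters is not given here, so this is not shown to be particular to clusters. With GW3965 these were 9 of 11 (81.8%, 48.2 to 97.7), against 58.5% of clustered peaks without RXR, a share inside that interval. With LG268 the clustered peaks with RXR were called in 21 of 33 cases (63.6%, 45.1 to 79.6), against 34.5%. With RA they were 19 of 23 (82.6%, 61.2 to 95.05), against 44.3%. Their median control scores were 9.59, 9.14 and 9.37, against 6.03, 5.95 and 6 without RXR, and the part of score in the difference was not tested.

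During differentiation, day 8 RXR peaks of both replicates lay inside 10 clusters: Tex14, Kdm6b, Vamp3, Mir3089, Srebf1, Rara, Msi2, Pisd-ps1, 4930428G15Rik and Plcxd1. Replicate 1 alone reached 10 clusters and replicate 2 alone 22 (mean 16 ± 8.49, SD, n = 2). At day 16 the number was 6, with 6 and 7 in the single replicates (mean 6.5 ± 0.707, SD, n = 2): Kdm6b, Pcmtd1, Srebf1, Pisd-ps1, 4930428G15Rik and Plcxd1. At Pcmtd1 the day 16 site scored 11.8 and 8.22 and was in none of the ES lists. The last 3 clusters of both days hold the satellite or (CCCTAA)n sites. With RXR peaks annotated as repeats left out, 8 clusters were left at day 8 and 4 at day 16. Pisd-ps1 stayed among them at both days through a peak annotated as intergenic. Whether replicates were separate cultures is not in the labels, and their spread can be technical only.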

How the data were processed

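H3K27ac and RXR peak lists of 12 libraries in 10 groups were used, 1 list per library. The submitters' processing notes name BWA 0.6.0, MACS2 2.0.10 and HOMER 4.2, and the builds mm9 and mm10 without their roles; per the file headers, peaks were annotated on mm10. Each peak has a Peak Score, deposited by the authors. No source states if its scale is shared by the libraries, so scores were ranked within a list. The distance to the nearest TSS and the nearest gene are also deposited values. Depth per library is not given in the sources used here.

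Distal peaks, stitching, ranking and calls were computed as the results describe, with overlap of at least 1 bp. RefSeq tables (GRCm38.p6, the mm10 assembly) gave starts, small RNA genes and sequences, and no genome sequence was used. A cluster was named by the nearest gene of most of its peaks. Named by rule were the first 20 clusters, the 5 with most peaks (6 with ties), uncalled clusters of the first 100, the 10 highest with RXR per list or day, members of 13 gene lists, and those at the rule's edges. Clusters at small RNA genes, clusters called whole or nowhere in 3 lists, and Gm7244 and Gltscr1l, were named after their values were seen. One cluster's name is not reported here. The members and lists were chosen with earlier results of these data known.

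No test compares treatments, each with 1 library. The counting was tested on simulated data. Alternatives were other TSS distances, stitching distances, score and repeat filters, overlap rules, list lengths, rankings and single replicates. Tools were scipy 1.17.1, pandas 2.3.3, numpy 2.4.6 and matplotlib 3.10.9, in Python 3.11.15.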

Additional observations from a re-analysis of the deposited data

How the results depend on the processing

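Of 75 alternative values, 40 stayed within bounds and 35 moved; the bounds were 1.5 times for a count and the reported value's 95% interval for a share. In all settings that changed the members, the order of the lists (GW3965, RA, LG268) and the higher share inside clusters than outside were unchanged. The number of clusters, 175, and of clusters with control RXR, 19, became 83 and 7 with 5 kb stitching, and 10 and 1 with control peaks at or above the median score. With 20 kb stitching 30 clusters held control RXR, and with RXR on a constituent peak 12 did. The shares called (GW3965, LG268, RA) became 87.9%, 75.8% and 84.8% at or above the median score. They were 45.5%, 27% and 35.9% with 50% reciprocal overlap, 50.8%, 30% and 39.6% with centres within 200 bp, and 76.3%, 54.4% and 64.6% for peaks within 1 kb. With ligand lists limited to 12472 peaks, GW3965 gave 40.3%, LG268 36.1% and RA 35.6%, so the order of LG268 and RA did not hold there.

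Other alternatives were chosen after seeing the data. Joining peaks within 1 kb first gave 42 clusters, 6 with control RXR, and 51.4% called with RA. Limiting the control list to 12472 peaks gave 23 clusters, 5 with RXR, and 85.5%, 68.4% and 75% called. Without CpG and RefSeq start peaks there were 105 clusters, 11 with RXR, and 53.5%, 28.5% and 35.2% called. Without peaks near small RNA genes there were 166 clusters, 18 with RXR, and 58%, 34% and 44.1% called. The day 8 count ranged from 10 to 22 with either replicate left out, and was 6 on constituent peaks; the day 16 count ranged from 6 to 7. The cause of these moves was not tested. No paired analysis was possible because no result comes from a test, and the ES groups have 1 library each.

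Depth per library is unknown, so no statement is made on peaks below a list's calling limit. List length differed between treatments and could not be separated from them. The nearest gene is a position, not a target. Clusters at repeats or near-identical gene copies are uncertain.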
